A study of Mus musculus with 16 samples.

Results

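The Rab GTPases of vesicle traffic were taken as every gene whose symbol is Rab followed by a number and at most 1 letter, which gave 59 of the 24421 genes in the count files. Gene names such as Rabgef1 or Rab11fip5, which encode partners of Rab proteins, fall outside this rule. RNA had been sequenced from viable leukocytes (CD45+) sorted as Kaede+ and CD11b+, with TER119 and NK1.1 gated out, from subcutaneous MC38-Ova tumours, which grow from a mouse colon adenocarcinoma line that carries ovalbumin. The hosts were C57BL/6 mice that express Kaede, a green protein that violet light turns red, and all 4 groups share this transgene, the tumour line and the label of an untreated control. Tumours were lit through the skin on day 13, so that Kaede-red cells were in the tumour at that moment and Kaede-green cells came in later, and were harvested 24h or 72h afterwards from mice killed at 8 to 14 weeks of age. Each of the 4 groups (Kaede-green 24h, Kaede-red 24h, Kaede-green 72h and Kaede-red 72h) held 4 libraries, all of them labelled with the same batch. Kaede colour marks arrival before or after the light and not a cell type, and in such bulk samples fewer cells of a type and less RNA per cell cannot be told apart.

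Rab proteins are small GTPases of the Ras superfamily that each mark particular membranes and switch between a GDP-bound, soluble form and a GTP-bound, membrane-bound form. Exchange factors load GTP, GTPase activating proteins end the signal, and effectors such as tethers, motors and adaptors are recruited while it lasts. In macrophages this system carries cargo from the endoplasmic reticulum through the Golgi, sorts what is taken up through early endosomes, and matures phagosomes into lysosomes.

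The libraries held between 3216858 and 15423085 counts, of which the ribosomal RNA precursor gene Rn45s took 79.0 to 93.4% in Kaede-green and 55.8 to 84.9% in Kaede-red libraries. The Rab genes together were left with 830 to 1726 counts in Kaede-green libraries and 2185 to 22112 in Kaede-red libraries, so Kaede-green values are the less precise ones. The sorted cells carried the RNA of macrophages, since the 8 monocyte and macrophage markers summed to 667 to 2383 CPM, the count scaled to a common library size by TMM. The 6 neutrophil markers with a row in the files summed to 17.8 to 22.4 CPM in Kaede-red 72h libraries. In the other libraries they summed to 8.603 to 14.3 CPM. Of these markers, S100a8 stood at 0 to 0.47 CPM in Kaede-red 72h and 0.37 to 1.56 CPM in Kaede-green 72h libraries. S100a9 stood at 0.19 to 0.45 and 0.31 to 2.56 CPM. The higher sum in Kaede-red 72h thus rested on the other markers of the list. The dendritic cell, T and NK cell, B cell, mast cell, platelet and epithelial lists each summed to at most 5.73 CPM, with the platelet gene Gp9 at 0 throughout. The monocyte and macrophage list itself moved with Kaede colour. Over both times 4 of its 8 genes were called higher in the Kaede-red cells and 1 lower (median log2 fold change 0.22), and at 72h 4 were called higher (median 0.67). By group the list summed to 994 to 2383 CPM in Kaede-green 24h, 667 to 1102 in Kaede-red 24h, 1178 to 1634 in Kaede-green 72h and 1153 to 1508 in Kaede-red 72h libraries. Lyz2 made up much of these sums, at 550 to 1636 CPM in Kaede-green 24h and 220 to 448 CPM in Kaede-red 24h libraries. At 72h Lyz2 was at 691 to 1052 and 414 to 702 CPM. Cd68 ran the other way, at 33.9 to 54.5 and 53.5 to 96.2 CPM at 24h. At 72h Cd68 was at 23.8 to 46.8 and 94.4 to 116 CPM. The 4 erythroid genes summed to 0 to 11.1 CPM, and neither of the 2 tested was called in any comparison. Other lists moved with Kaede colour: the 5 fibroblast markers summed to 40.3 to 52.8 CPM in Kaede-green and 11.2 to 35.9 CPM in Kaede-red libraries, and the 3 endothelial markers to 9.77 to 19.0 and 17.8 to 36.7 CPM. Of the 2 neutrophil markers tested, 1 was called higher in Kaede-red cells over both times and 1 at 72h. Within Kaede-red cells 1 of these 2 was called higher at 72h than at 24h. Of the 2 dendritic cell markers tested, 1 was called higher in Kaede-red cells over both times and 1 at 24h. All 3 tested fibroblast markers were lower in Kaede-red cells over both times, while 2 of 3 endothelial markers were higher and 1 was lower. The part of these lists in the Rab results was not tested. Kaede-green 72h replicate 3 stood apart, with 73 genes at over 5 times the highest other library against 0 to 4 in the rest, and 10 brain transcripts (a list chosen after its values were seen) summed to 189.7 CPM there against at most 2.86 elsewhere. Results that rest on this library are also given without it, an alternative chosen for the partner genes after the data were seen.

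Of the 59 Rab genes, 35 passed the filter on low counts and were tested among 9642 genes. Over both times, 4 of these 35 were higher in Kaede-red than in Kaede-green cells (Rab7b, Rab43, Rab6a and Rab7) and 2 were lower (Rab32 and Rab9), by edgeR's quasi-likelihood test at an adjusted p under 0.05. Among all genes tested, 10% were higher and 10.3% lower at this threshold, so that the 11.4% and 5.71% of Rab genes lay near and below the background. The differences of the called Rab genes were moderate, from -0.72 to 0.86 on the log2 scale. Without the outlying Kaede-green 72h replicate 3, 3 were higher (Rab7 was lost) and 2 were lower (Rab9 was lost and Rab29 was added). The median log2 fold change was 0.19 over the 35 Rab genes and 0.06 over all genes tested. When the Rn45s share of each library was added to the fit as a covariate, no Rab gene was called in any comparison, and all genes called over both times fell from 1959 to 156. The Rn45s share itself went with Kaede colour (79.0 to 93.4% in Kaede-green and 55.8 to 84.9% in Kaede-red libraries). This fit therefore cannot tell the share and the colour apart. The 16 gene differences called in the fits without this covariate kept their direction with it, at adjusted p-values of 0.0524 to 0.894. When libraries were scaled by their total counts alone, the median of all genes rose to 2.20 on the log2 scale and 9318 of the 9328 genes called were higher, against 969 of 1959 before. In that scaling 34 of the 35 Rab genes were called higher, Rab32 (1.58) and Rab9 (1.38) among them but under that median. Outside Rn45s, the Rab genes took 0.172 to 0.217% of counts in Kaede-green and 0.288 to 0.404% in Kaede-red libraries, while Lars2 and Mir6236 together took 29.2 to 51.3% and 3.05 to 27.8%. Their part in the results was not tested.

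**Figure D1:**
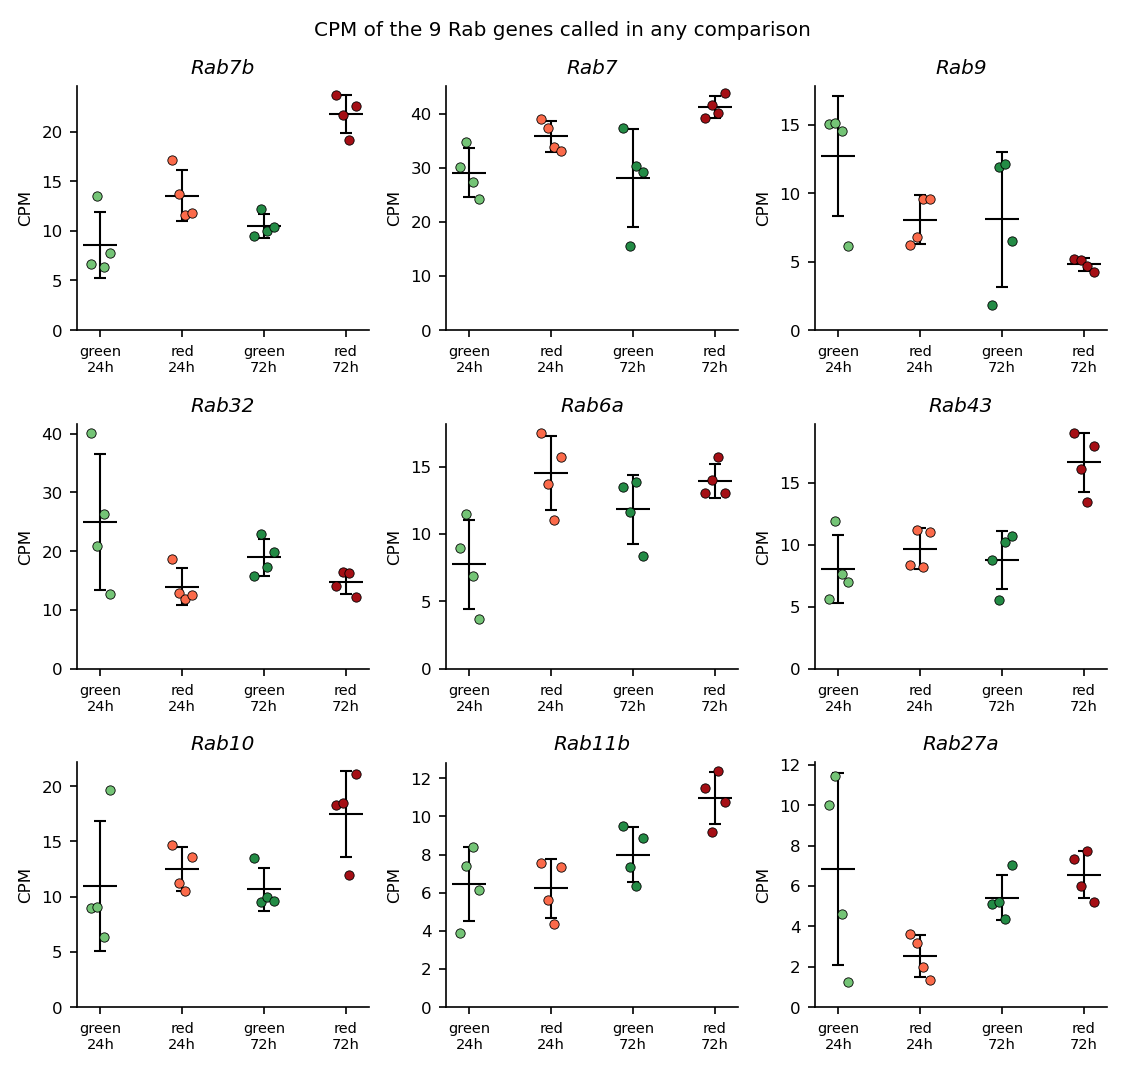
Each panel plots 1 Rab gene in CPM (scaled counts, linear axis from 0) for the 4 groups of Kaede colour and time. Points are the 4 libraries of a group, the horizontal line is their mean and the bar is 1 SD. Rab7b and Rab43 sit highest in the 4 Kaede-red 72h libraries, and Rab27a sits lowest in Kaede-red 24h libraries apart from 1 Kaede-green 24h library at 1.23 CPM.

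Windows around the start of transcription (250 bases before to 50 after, RefSeq annotation on GRCm38.p6) were held for 48 of the 59 genes, and are shown for the 5 of the 6 genes called over both times that have one, since these are the regions nearest to the genes that differ. No window was given for Rab7b. Capitals mark, on either strand, the GC box GGGCGG, the CCAAT box CCAAT, the E-box CACGTG that TFEB and USF factors can bind, and GAGGAAGT, a form of the site of the myeloid factor PU.1. The windows lie at chr6:87812115-87812414 on the minus strand for Rab43, chr6:88045221-88045520 on the minus strand for Rab7, chr7:100607336-100607635 on the plus strand for Rab6a, chr10:10558158-10558457 on the minus strand for Rab32 and chrX:166479818-166480117 on the minus strand for Rab9.
Rab43: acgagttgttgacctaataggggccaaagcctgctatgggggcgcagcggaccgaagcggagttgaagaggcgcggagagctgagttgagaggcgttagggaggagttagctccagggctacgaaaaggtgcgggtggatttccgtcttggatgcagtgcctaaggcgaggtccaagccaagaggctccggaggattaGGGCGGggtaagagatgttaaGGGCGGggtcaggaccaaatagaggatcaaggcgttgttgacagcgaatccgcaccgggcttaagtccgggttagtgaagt
Rab7: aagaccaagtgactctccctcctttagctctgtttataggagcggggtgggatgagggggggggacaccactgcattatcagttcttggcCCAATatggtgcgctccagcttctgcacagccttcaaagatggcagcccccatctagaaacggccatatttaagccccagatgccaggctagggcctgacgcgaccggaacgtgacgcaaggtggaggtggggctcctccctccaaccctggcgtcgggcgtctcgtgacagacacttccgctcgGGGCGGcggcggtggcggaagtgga
Rab6a: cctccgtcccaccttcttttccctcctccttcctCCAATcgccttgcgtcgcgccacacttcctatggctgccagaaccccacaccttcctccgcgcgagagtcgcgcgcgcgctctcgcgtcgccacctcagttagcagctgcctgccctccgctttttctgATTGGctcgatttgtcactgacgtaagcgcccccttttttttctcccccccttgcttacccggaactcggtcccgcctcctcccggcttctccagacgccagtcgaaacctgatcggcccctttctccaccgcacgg
Rab32: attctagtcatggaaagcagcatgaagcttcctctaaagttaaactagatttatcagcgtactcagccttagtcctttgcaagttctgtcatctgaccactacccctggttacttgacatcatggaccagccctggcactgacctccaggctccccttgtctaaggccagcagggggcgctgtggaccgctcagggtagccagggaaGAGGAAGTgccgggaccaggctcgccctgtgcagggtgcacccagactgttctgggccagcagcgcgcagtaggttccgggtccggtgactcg
Rab9: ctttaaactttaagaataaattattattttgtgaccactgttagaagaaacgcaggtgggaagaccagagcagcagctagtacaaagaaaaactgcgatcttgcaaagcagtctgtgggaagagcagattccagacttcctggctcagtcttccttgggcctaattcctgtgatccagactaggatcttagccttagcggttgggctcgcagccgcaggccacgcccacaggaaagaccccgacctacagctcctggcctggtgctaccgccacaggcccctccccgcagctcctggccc
Rab43 and Rab7 hold 2 and 1 GC boxes, Rab7 and Rab6a hold 1 and 2 CCAAT boxes, Rab32 holds the 1 PU.1-type match of the set and Rab9 holds none of the 4 motifs. A GC box was found in 34 of the 48 Rab windows (70.8%) and in 35.7% of all 32851 promoter windows, and the median GC content of the Rab windows was 61.7% against 52.7%. The other motifs were held by 47.9% of Rab and 37.4% of all windows for CCAAT, 10.4% and 7.15% for CACGTG (Rab5a, Rab20, Rab21, Rab23 and Rab24), and 4.17% and 3.20% for GAGGAAGT (Rab2b and Rab32). These matches describe the letters in the windows only.

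Before the comparisons, the levels of the Rab genes were set against each other per kilobase of exon, since longer transcripts collect more counts. Rab5c, an early endosome GTPase, was the highest in all 4 groups, at 18.1 ± 3.00 CPM per kb (SD, n = 16). Rab7, which drives the late endosome and lysosome, followed at 12.8 ± 2.79, Rab1 (Rab1a in the annotation), which moves cargo from the endoplasmic reticulum to the Golgi, at 10.9 ± 1.69, and Rab8b, which carries exocytic membrane to the cell surface, at 10.6 ± 2.09 CPM per kb. Over all 16 libraries the latter 3 do not differ beyond their spread, and their order changed between groups. Within Kaede-red 72h cells Rab7 (15.8 ± 0.77) stood above Rab8b (12.2 ± 0.94) and Rab1 (11.1 ± 0.48 CPM per kb, SD, n = 4). Rab32, which serves lysosome-related organelles, came next at 7.76 ± 3.08 CPM per kb, ahead of Rab8a at 6.33 ± 1.498 and Rab11a at 5.39 ± 1.51, again within their spread. The 59 genes together took 0.328% of all counts outside Rn45s, and the 24 untested genes 1.27% of those.

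**Figure D2:**
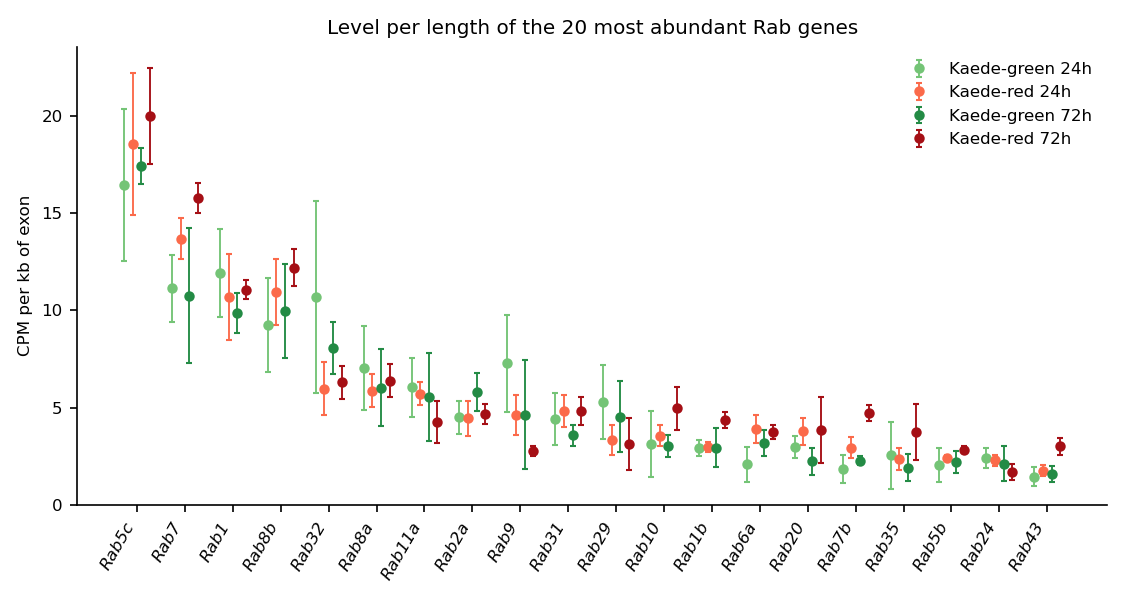
Mean level of the 20 most abundant Rab genes in CPM per kilobase of exon (linear axis from 0), by group, with bars of 1 SD over the 4 libraries of each group. Rab5c leads in each group, with 16.4 CPM per kb in Kaede-green 24h cells.

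Of the 6 calls over both times, 4 were among the Rab genes of the late endosome, lysosome and lysosome-related organelles, and these went in both directions. Of the 11 genes of this group 6 were tested, and over both times 2 rose and 2 fell in Kaede-red cells, beside 10% and 10.3% of all genes, while Rab24, tied to autophagy, and Rab29, a partner of the kinase LRRK2, did not pass the test.

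Rab7b, placed between late endosomes and the trans-Golgi network and known to dampen Toll-like receptor signalling in macrophages, had the lowest adjusted p of the Rab genes. In Kaede-green 24h libraries it stood at 6.69, 13.5, 6.37 and 7.77 CPM (12 to 33 counts), and in Kaede-red 24h libraries at 17.1, 13.7, 11.6 and 11.8 CPM. In Kaede-green 72h libraries it stood at 9.503, 12.2, 9.97 and 10.4 CPM, and in Kaede-red 72h libraries at 23.8, 21.7, 19.2 and 22.6 CPM. The colours did not overlap at 72h, and at 24h they overlapped through Kaede-green replicate 2 alone. Rab7b was higher in Kaede-red cells by 0.86 ± 0.17 (log2 fold change ± SE, adjusted p = 0.000236, n = 8 per colour) over both times and by 1.05 ± 0.23 (adjusted p = 0.0011) at 72h. At 24h the difference was 0.67 ± 0.25 (adjusted p = 0.0938) in edgeR, and DESeq2 called it. Both calls held in each of the 16 fits that left out 1 library, with 0.77 to 1.00 over both times and 0.99 to 1.11 at 72h, and without the outlying Kaede-green 72h replicate 3 they were 0.83 and 1.01.

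Rab7 itself, the main GTPase of late endosome fusion with lysosomes, was at 30.1, 34.8, 27.3 and 24.1 CPM in Kaede-green 24h libraries and at 38.9, 37.3, 33.8 and 33.1 CPM in Kaede-red 24h libraries. At 72h it was at 37.3, 15.6, 30.4 and 29.1 CPM in Kaede-green and 39.2, 41.6, 40.1 and 43.8 CPM in Kaede-red libraries. Kaede-red libraries were all above the Kaede-green ones at 72h, by a narrow margin over Kaede-green replicate 1. The difference over both times was 0.43 ± 0.15 (adjusted p = 0.0353). This call was lost without any 1 of 10 libraries, at 0.31 to 0.44 and adjusted p-values of 0.0511 to 0.115: Kaede-green 24h replicates 1, 3 and 4, Kaede-red 24h replicates 1 and 2, Kaede-green 72h replicates 2 and 3, and Kaede-red 72h replicates 1, 2 and 4. Of the 75-base stretches of Rab7 transcripts, 10.2% are shared with a pseudogene (Rab7-ps1) and an antisense gene (Gm5577), so that some of its counts are uncertain.

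Rab9, which returns mannose 6-phosphate receptors from late endosomes to the trans-Golgi network, was lower in Kaede-red cells. It stood at 15.1, 15.2, 14.5 and 6.13 CPM in Kaede-green 24h libraries and at 6.24, 6.81, 9.62 and 9.56 CPM in Kaede-red 24h libraries. At 72h it stood at 1.83, 11.9, 12.2 and 6.503 CPM in Kaede-green and at 5.21, 5.09, 4.69 and 4.21 CPM in Kaede-red libraries. Kaede-green libraries spread widely and 1 at each time lay among or below the Kaede-red ones, on 15 and 5 counts. The difference over both times was -0.72 ± 0.23 (adjusted p = 0.0247). The values of -0.66 (24h) and -0.78 (72h) did not pass the test. The call over both times was lost without Kaede-red 24h replicate 1 (-0.67, adjusted p = 0.0558) or 2 (-0.69, adjusted p = 0.051). It was also lost when Kaede-green 72h replicate 2 (-0.64, adjusted p = 0.0642) or 3 (-0.61, adjusted p = 0.0769) was left out.

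Rab32, which delivers enzymes to lysosome-related organelles and to vacuoles that hold bacteria, was also lower in Kaede-red cells. Kaede-green 24h libraries held 40.1, 20.9, 26.2 and 12.7 CPM and Kaede-red 24h libraries 18.7, 12.8, 11.8 and 12.5 CPM. Kaede-green 72h libraries held 15.7, 22.9, 17.3 and 19.8 CPM and Kaede-red 72h libraries 14.1, 16.4, 16.2 and 12.2 CPM. The colours overlapped at both times, with the widest range among Kaede-green 24h libraries. The difference was -0.59 ± 0.18 (adjusted p = 0.0147) over both times and -0.82 ± 0.25 (adjusted p = 0.0412) at 24h. At 72h it was -0.37 ± 0.24 (adjusted p = 0.33), which did not pass the test. The call over both times held in each fit that left out 1 library (-0.72 to -0.47) and was lost with no filter on low counts (-0.47, adjusted p = 0.0569). The call at 24h was lost without Kaede-green 24h replicate 1 (-0.54, adjusted p = 0.206) or 3, Kaede-red 24h replicate 2, 3 or 4, or Kaede-red 72h replicate 1 or 2, at -0.82 to -0.76 and adjusted p-values of 0.051 to 0.107 for the last 6. Rab38, the near relative of Rab32 in pigment cells, had 2 counts in all libraries together.

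Among the Rab genes of the endoplasmic reticulum and Golgi, 8 of 13 were tested, and over both times 2 were higher in Kaede-red cells and none was lower, against the same 10% and 10.3%. Compartments of so few genes allow no comparison with these shares. Rab43, a Golgi GTPase that helps retrograde traffic and the transport of some receptors, stood at 5.58, 11.9, 7.64 and 6.95 CPM in Kaede-green 24h and 8.34, 11.2, 8.17 and 10.98 CPM in Kaede-red 24h libraries. At 72h it stood at 8.77, 5.496, 10.2 and 10.7 CPM in Kaede-green and 18.98, 16.1, 13.5 and 17.9 CPM in Kaede-red libraries. The colours overlapped at 24h and were apart at 72h. The difference was 0.59 ± 0.18 (adjusted p = 0.0168) over both times and 0.92 ± 0.24 (adjusted p = 0.00738) at 72h. Both calls were lost without Kaede-green 72h replicate 2, at 0.48 (adjusted p = 0.0545) and 0.72 (adjusted p = 0.0539), and in no other fit that left out 1 library. Rab43 and Rab7 lie on chromosome 6, from 87788853 to 87812164 and from 87999106 to 88045270 (GRCm38, minus strand). Of the 75-base stretches of Rab43 transcripts, 74.2% are shared with the overlapping gene model Gm45140, and how reads common to both were assigned is not stated, so the counts of Rab43 are uncertain.

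Rab6a, which controls traffic within and out of the Golgi, rose in Kaede-red cells of the earlier time. It held 8.92, 11.5, 6.88 and 3.68 CPM in Kaede-green 24h libraries (9 to 28 counts) and 17.5, 13.7, 11.1 and 15.7 CPM in Kaede-red 24h libraries. At 72h it held 13.5, 11.6, 13.9 and 8.32 CPM in Kaede-green and 13.03, 13.99, 15.7 and 13.01 CPM in Kaede-red libraries. The Kaede-green 24h libraries were mostly the low ones, though 1 (11.5) was above the lowest Kaede-red 24h library (11.1). Kaede-green 72h replicate 4 (8.32) was also below the Kaede-green 24h values of 8.92 and 11.5. The other 3 groups overlapped. The difference was 0.93 ± 0.27 (adjusted p = 0.0268) at 24h and 0.58 ± 0.18 (adjusted p = 0.0197) over both times, and 0.23 ± 0.24 (adjusted p = 0.565) at 72h. The call over both times was lost without Kaede-green 24h replicate 3 (0.53, adjusted p = 0.0551) or 4 (0.45, adjusted p = 0.0549). At 24h it was lost without Kaede-green 24h replicate 3 (0.86, adjusted p = 0.0963) or 4 (0.70, adjusted p = 0.1), or Kaede-red 24h replicate 1 (0.83, adjusted p = 0.0873) or 4 (0.89, adjusted p = 0.0632). Rab6a shares 17.1% of its stretches with Mrpl48, which overlaps it on the other strand and showed -0.27 ± 0.26 (adjusted p = 0.50) over both times. Whether counting used the strand is not stated.

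Rab1 (Rab1a), the abundant GTPase of the first step out of the endoplasmic reticulum, gave no such difference. Rab1 held 52.97, 47.1, 48.2 and 33.1 CPM in Kaede-green 24h and 50.9, 44.03, 33.2 and 34.2 CPM in Kaede-red 24h libraries. At 72h the values were 35.5, 42.4, 33.6 and 38.5 CPM for Kaede-green and 42.1, 43.5, 43.3 and 39.5 CPM for Kaede-red. All 4 groups overlapped. Its difference over both times was 0.01 ± 0.13 (adjusted p = 0.986). The other tested genes of the group, Rab1b, Rab2a, Rab18, Rab19 and Rab33b, ranged from -0.33 to 0.30 over both times, and none passed the test.

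None of the 9 tested early endosome genes was called in any of the 6 comparisons (background shares of 0 to 10.3%). Rab5c, the highest Rab gene per kilobase of exon, was among them. Rab5c held 45.7, 39.7, 33.1 and 25.8 CPM in Kaede-green 24h and 44.6, 50.1, 35.02 and 33.1 CPM in Kaede-red 24h libraries. Its 72h libraries were at 36.2, 37.9, 37.9 and 41.1 CPM for Kaede-green and 49.01, 47.3, 42.3 and 36.9 CPM for Kaede-red. The colours overlapped at both times, and the difference over both was 0.19 ± 0.14 (adjusted p = 0.365). Its paralog Rab5a, which recruits tethers and a lipid kinase to early endosomes, stood lower in Kaede-red cells, at -0.39 ± 0.18 (adjusted p = 0.13). Rab5a held 16.7, 12.7, 16.3 and 8.997 CPM in Kaede-green 24h and 8.87, 10.1, 7.803 and 7.17 CPM in Kaede-red 24h libraries. At 72h the values were 11.7, 6.41, 12.4 and 5.46 CPM for Kaede-green and 8.49, 8.72, 7.26 and 8.803 CPM for Kaede-red. The groups overlapped at both times, and the difference was called (-0.49, adjusted p = 0.0493) only in the fit without Kaede-green 24h replicate 4.

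Rab14, Rab20 and Rab31 did not pass the test either, with values above 0. Rab14, which links endosomes and the Golgi and delays phagosome maturation, was higher in every Kaede-red 72h than in any Kaede-green 72h library. Rab14 held 15.1, 14.7, 10.96 and 7.36 CPM in Kaede-green 24h and 15.3, 18.001, 13.97 and 9.498 CPM in Kaede-red 24h libraries. Its 72h libraries were at 13.9, 11.6, 13.4 and 9.88 CPM for Kaede-green and 16.1, 16.9, 20.7 and 17.04 CPM for Kaede-red. The difference over both times was 0.39 ± 0.17 (adjusted p = 0.102), and it was called without Kaede-red 24h replicate 4 (0.47, adjusted p = 0.0432). It was also called among genes with at least 10 counts in every library (0.45, adjusted p = 0.0211).

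Rab31, which sorts receptors from the trans-Golgi network to endosomes, did not overlap between colours at 72h, by a margin within the rounding of the values. Rab31 held 21.7, 20.5, 11.5 and 13.5 CPM in Kaede-green 24h and 22.8, 18.7, 16.3 and 15.8 CPM in Kaede-red 24h libraries. At 72h the values were 11.3, 16.2, 13.1 and 13.8 CPM for Kaede-green and 16.4, 18.8, 22.1 and 16.2 CPM for Kaede-red. Over both times it differed by 0.29 ± 0.16 (adjusted p = 0.201), and by 0.36 (adjusted p = 0.0457) under the stricter filter. Rab20, a phagosome GTPase that interferon induces in macrophages, was sparse, with as few as 8 counts in a library. Rab20 held 4.46, 3.69, 5.096 and 3.27 CPM in Kaede-green 24h and 6.24, 5.23, 5.63 and 3.94 CPM in Kaede-red 24h libraries. Its 72h libraries were at 3.66, 2.44, 2.19 and 4.16 CPM for Kaede-green and 8.34, 5.95, 2.72 and 4.401 CPM for Kaede-red. The colours overlapped at both times. It differed by 0.57 ± 0.25 (adjusted p = 0.103) and was called (0.66, adjusted p = 0.0479) without Kaede-red 72h replicate 3, and 21.5% of its 75-base stretches are shared with the overlapping E230013L22Rik. The other 4 early endosome genes, Rab4b, Rab5b, Rab21 and Rab22a, lay between 0.00 and 0.28 over both times.

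The recycling and plasma membrane genes, of which 7 of 11 were tested, gave no call over both times or at 24h. Rab10, which brings vesicles to the cell surface and Toll-like receptor 4 to it in macrophages, was called at 72h. Its Kaede-green 72h libraries held 13.5, 9.46, 9.97 and 9.62 CPM and its Kaede-red 72h libraries 18.3, 18.5, 11.9 and 21.1 CPM, so the colours overlapped through Kaede-red replicate 3. At 24h Rab10 held 8.92, 9.01, 6.37 and 19.6 CPM in Kaede-green and 14.7, 11.2, 10.5 and 13.6 CPM in Kaede-red libraries. The difference at 72h was 0.74 ± 0.26 (adjusted p = 0.0474), close to the threshold. It was lost in 12 of the 16 fits that left out 1 library, at 0.63 to 0.74 and adjusted p-values of 0.0511 to 0.142, and kept without Kaede-green 24h replicate 3 or 4, Kaede-green 72h replicate 1 or Kaede-red 72h replicate 3. DESeq2 did not call it (0.69, adjusted p = 0.0742). Rab11a, the main recycling endosome GTPase, was not called. Rab11a held 14.5, 18.03, 15.3 and 24.5 CPM in Kaede-green 24h and 15.02, 18.7, 18.5 and 16.2 CPM in Kaede-red 24h libraries. At 72h the values were 11.3, 26.6, 13.9 and 14.8 CPM for Kaede-green and 11.98, 11.1, 17.4 and 10.4 CPM for Kaede-red. The groups overlapped, and the difference over both times was -0.25 ± 0.17 (adjusted p = 0.334). Rab8a and Rab8b, exocytic GTPases, were at -0.09 ± 0.16 (adjusted p = 0.751) and 0.27 ± 0.15 (adjusted p = 0.202).

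At 72h, 3 of the 35 tested Rab genes were higher in Kaede-red cells (Rab7b, Rab43 and Rab10; 8.57%, against 8.06% of all genes) and none was lower (against 8.76%), and without Kaede-green 72h replicate 3 Rab10 was lost. At an unadjusted p under 0.05, 8 Rab genes were higher and 1 was lower at 72h. DESeq2 called 1 gene lower, Rab6b, which had 38 counts in the outlying Kaede-green 72h replicate 3 and 0 to 2 in the other Kaede-green 72h libraries. For 7 of the 35 genes (Rab1b, Rab7, Rab7b, Rab14, Rab31, Rab35 and Rab43) all Kaede-red 72h libraries were above all Kaede-green 72h libraries, against 13% of all genes tested. Without Kaede-green 72h replicate 3 these were again 7 genes, the same ones, against 16.3%. Rab33b was the 1 gene with all Kaede-red 24h libraries below all Kaede-green 24h libraries, against 5.43% of all genes tested. At 24h, 1 of 35 was higher (Rab6a; 2.86%, against 3.22% of all genes) and 2 were lower (Rab32 and Rab27a; 5.71%, against 4.28%).

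**Figure D3:**
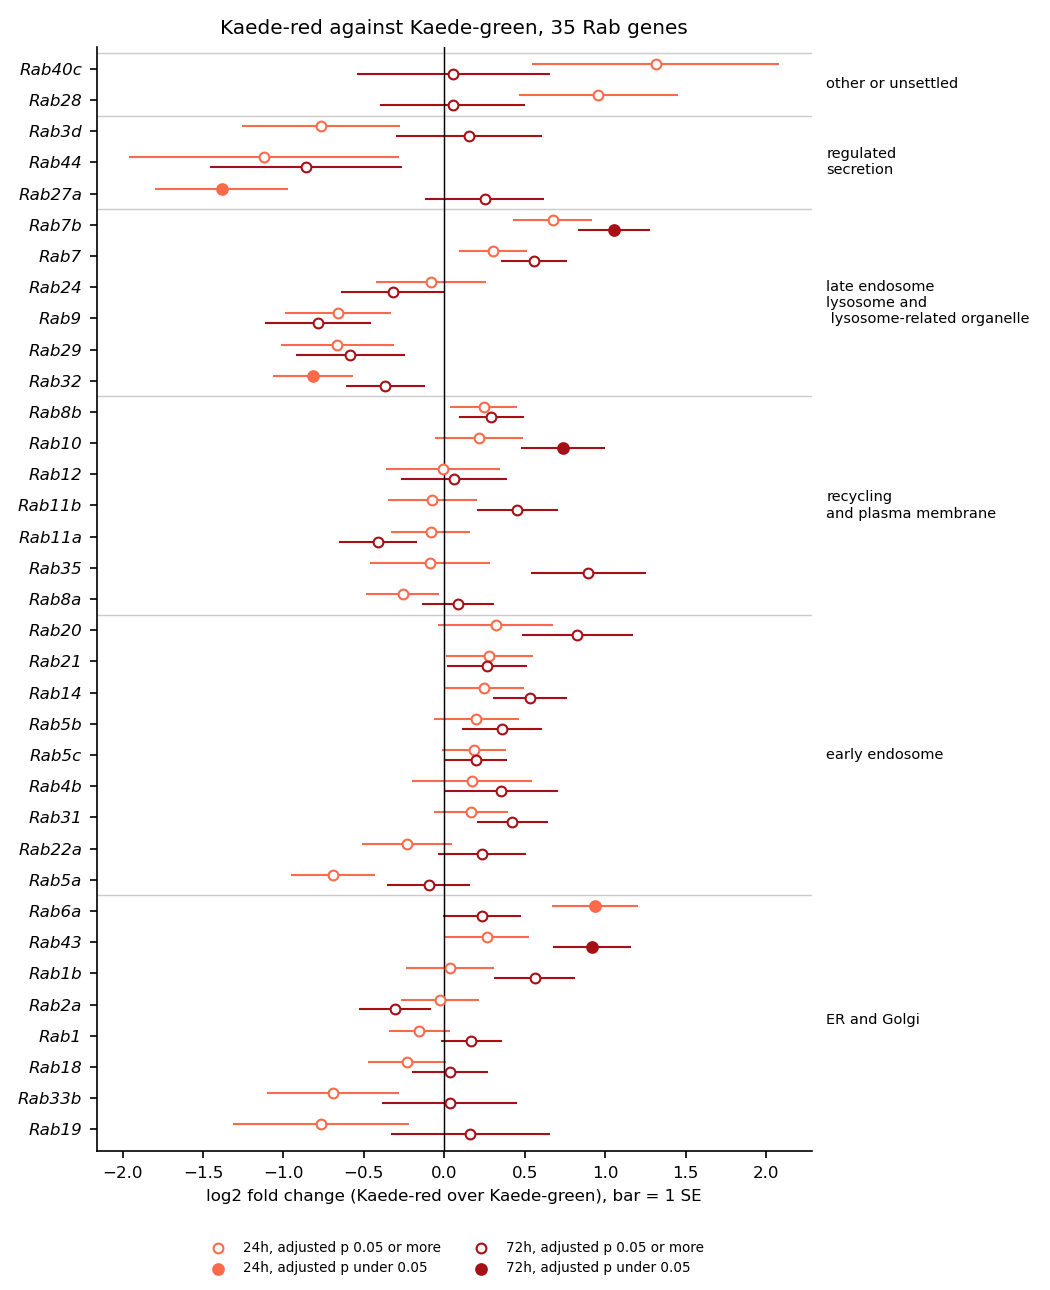
Log2 fold change of Kaede-red over Kaede-green cells for the 35 tested Rab genes, at 24h (light) and at 72h (dark), grouped by compartment, with bars of 1 SE and filled points where the adjusted p is under 0.05. The 6 filled points are Rab6a, Rab32 and Rab27a at 24h and Rab7b, Rab43 and Rab10 at 72h, and the early endosome genes hold none.

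Of the 9 genes of regulated secretion, only 3 were tested, and Rab27a, which docks secretory lysosomes and exosome-bearing endosomes at the plasma membrane, was the 1 with calls. In Kaede-green 24h libraries Rab27a held 10.04, 11.5, 4.59 and 1.23 CPM (18, 28, 18 and 3 counts), and in Kaede-red 24h libraries 3.601, 3.16, 1.996 and 1.36 CPM. In Kaede-green 72h libraries it held 5.12, 5.19, 4.38 and 7.02 CPM, and in Kaede-red 72h libraries 7.32, 5.98, 7.71 and 5.202 CPM. The Kaede-red 24h libraries were all below the Kaede-red 72h libraries, and they overlapped with Kaede-green 24h cells only through replicate 4. The difference of Kaede-red from Kaede-green cells was -1.38 ± 0.41 (adjusted p = 0.0346) at 24h, 0.25 ± 0.37 (adjusted p = 0.708) at 72h and -0.57 ± 0.28 (adjusted p = 0.152) over both times. The call at 24h was lost without Kaede-green 24h replicate 1 (-1.18, adjusted p = 0.115) or 2 (-0.99, adjusted p = 0.196), or Kaede-red 24h replicate 3 (-1.33, adjusted p = 0.0739) or 4 (-1.13, adjusted p = 0.118), and with Kaede-red libraries thinned to the Kaede-green depth (-1.16, adjusted p = 0.0895). Over both times it was called without Kaede-green 24h replicate 4 (-0.76, adjusted p = 0.0227). Rab3d and Rab44, of secretory granules, ranged from -1.12 to 0.15 between colours, on few counts, and were not called.

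The second question of the design is whether the cells of 1 colour changed between 24h and 72h. In Kaede-red cells, 4 of the 35 Rab genes were higher at 72h (Rab27a, Rab43, Rab11b and Rab7b; 11.4%, against 4.92% of all genes) and none was lower (against 3.76%). Rab27a rose by 1.36 ± 0.36 (adjusted p = 0.0173), Rab43 by 0.78 ± 0.22 (adjusted p = 0.0273) and Rab7b by 0.68 ± 0.21 (adjusted p = 0.0353). Rab11b, the second recycling endosome paralog, rose by 0.78 ± 0.23 (adjusted p = 0.0335). It stood at 7.55, 5.59, 4.35 and 7.37 CPM in Kaede-red 24h and 11.5, 9.18, 12.4 and 10.7 CPM in Kaede-red 72h libraries, and at 3.90, 7.37, 8.41, 6.13 and 9.50, 7.33, 6.32, 8.84 CPM in Kaede-green 24h and 72h libraries. Each of the 4 genes was above its 24h values in all Kaede-red 72h libraries, as were 6 of the 35 Rab genes (Rab1b and Rab7 in addition) and 11.8% of all genes. In the other direction, 2 of the 35 (Rab9 and Rab33b) and 8.76% of all genes were below their 24h values in all Kaede-red 72h libraries. Rab11b shares 11.9% of its 75-base stretches with other genes, mostly the pseudogene Rab11b-ps2. Single libraries decided these calls: none of the 4 held without Kaede-red 24h replicate 3, Kaede-red 24h replicate 4 or Kaede-red 72h replicate 1, at adjusted p-values of 0.0514 to 0.134, and 1 (Rab27a) held without Kaede-red 72h replicate 4. Without Kaede-red 24h replicate 2, Rab7b and Rab11b were lost, and without Kaede-red 72h replicate 2, Rab7b and Rab43 were lost. Rab43 was also lost without Kaede-red 24h replicate 1 (0.71, adjusted p = 0.0678). Rab11b was lost when Kaede-red 72h replicate 3 was left out (0.72, adjusted p = 0.0719). Scaling by library size alone left no Rab gene called here, with adjusted p-values of 0.255 to 0.405 for these 4.

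In Kaede-green cells none of the 35 Rab genes was called between 24h and 72h by edgeR, nor was any of the 9642 genes (0%). At an unadjusted p under 0.05, 1 Rab gene was higher and 2 were lower, among 835 genes in all, and DESeq2 called 14 genes and no Rab gene. The 2 sets of values lie side by side for Rab7b, which differed by 0.30 (Kaede-green) and 0.68 (Kaede-red), for Rab11b (0.25 and 0.78), and for Rab27a (-0.28 and 1.36). The interaction of colour and time, which tests this directly, was called for no Rab gene (73 of all genes, 0.757%). It was largest for Rab27a, at 1.64 ± 0.55 (adjusted p = 0.136). Rab27a was the 1 Rab gene at an unadjusted p under 0.05, among 1476 of all 9642 genes. Without Kaede-green 24h replicate 4, at 3 counts, Rab27a was called. No Rab gene was called here by DESeq2.

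**Figure D4:**
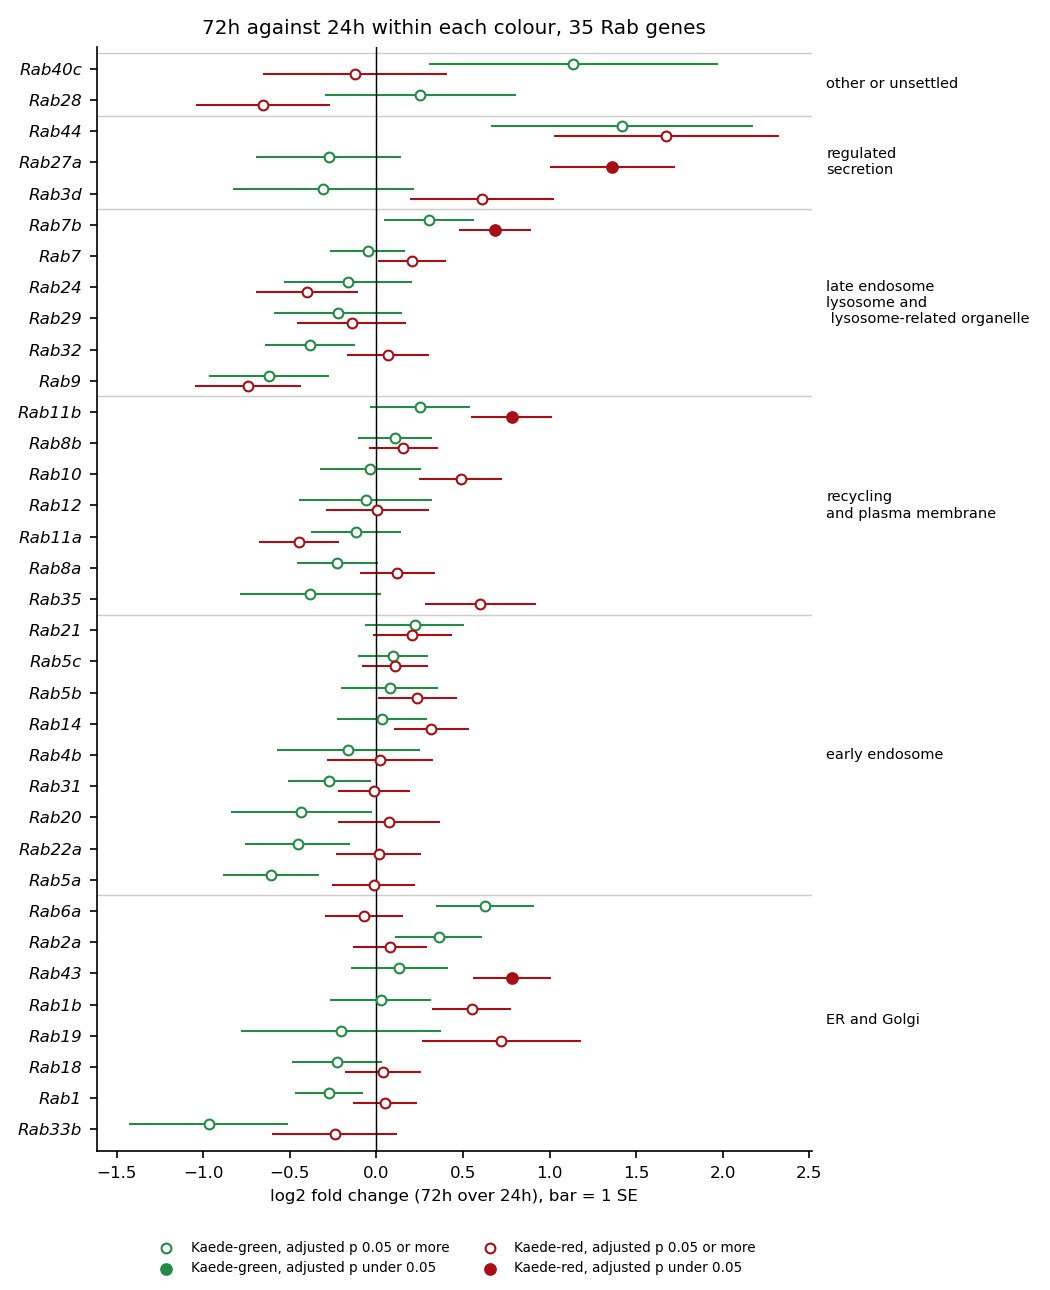
Log2 fold change of 72h over 24h for the 35 tested Rab genes in Kaede-green (green) and Kaede-red (red) cells, grouped by compartment, with bars of 1 SE and filled points where the adjusted p is under 0.05. The 4 filled points are Rab27a, Rab43, Rab11b and Rab7b in Kaede-red cells, and no gene is filled in Kaede-green cells.

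The 24 Rab genes below the filter held between 0 and 146 counts over all 16 libraries, and 17 of them held under 50. They included all 3 neuronal and endocrine forms Rab3a, Rab3b and Rab3c, the epithelial forms Rab17 and Rab25, and Rab38. Rab25 had no count in any library. Rab3a held 26 of its 108 counts, Rab3c 14 of 25, Rab6b 38 of 75 and Rab40b 8 of 10 in Kaede-green 72h replicate 3, the library in which brain transcripts were high. There they stood at 6.32, 3.41, 9.24 and 1.95 CPM, against at most 0.78, 0, 0.61 and 0.26 CPM in the other Kaede-green 72h libraries. The part of the brain transcripts in this was not tested. Rab39 and Rab13 were the best covered of the rest, with 146 and 127 counts. Rab28 and Rab40c, of unsettled compartment, were tested and not called, at 0.50 and 0.68 over both times.

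Partners of Rab proteins were listed in 4 classes of 138 genes, of which 109 were tested. Over both times 14 were higher in Kaede-red cells and 4 were lower, and at 72h 15 were higher and 3 lower, against background shares of 10% and 10.3%, and of 8.06% and 8.76%. Without Kaede-green 72h replicate 3, the counts were 15 and 3 over both times and 11 and 2 at 72h. With the Rn45s share, which went with Kaede colour, as a covariate, no partner was called in any comparison. Scaled by library size only, which turned the direction of the falls, 109 were higher over both times and 100 at 72h, with none lower. At 24h 1 was higher and 1 lower, against 3.22% and 4.28%. Effectors held 13 of the 18 calls over both times, with 10 of 43 higher and 3 lower, and 9 of the 18 calls at 72h. They included Vps39 (1.21 ± 0.35, adjusted p = 0.013), a subunit of HOPS, a tether of late endosomes and lysosomes. Tgfbrap1, a subunit of the early endosome tether CORVET, differed by 1.65 ± 0.46 (adjusted p = 0.011) at 72h, and Plekhm1, a Rab7 effector that binds HOPS, by 1.45 ± 0.29 (adjusted p = 0.000544). The largest difference among the partners called at 72h was that of Mon1a, part of the exchange factor of Rab7, at 2.55 ± 0.84 (adjusted p = 0.0331). Mon1a was near the floor, at 0 to 0.52 CPM in Kaede-green 72h and 1.44 to 2.12 CPM in Kaede-red 72h libraries. Tgfbrap1 was also low, at 0.37 to 2.08 and 2.12 to 5.54 CPM. Without Kaede-green 72h replicate 3, Mon1a (2.06, adjusted p = 0.12) and Tgfbrap1 (1.43, adjusted p = 0.0554) were lost and Plekhm1 was kept (1.52, adjusted p = 0.00189).

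Among exchange factors 3 of 31 were higher over both times and none was lower. Rab3il1, an exchange factor for Rab8 and Rab3, was higher by 1.26 ± 0.22 (adjusted p = 7.7e-05) and was also the 1 partner higher at 24h, by 1.22 ± 0.33 (adjusted p = 0.0176). Of the GTPase activating proteins, 1 of 27 rose and 1 fell: Tbc1d4, which acts on Rab10 and related Rabs in insulin-regulated traffic, by 1.36 ± 0.39 (adjusted p = 0.0119), and Evi5, which acts on Rab11, at -0.77 ± 0.19 (adjusted p = 0.00372), or -0.94 ± 0.27 (adjusted p = 0.0128) for 72h alone. The other large falls were of effectors. Rilpl1, which binds Rab proteins phosphorylated by LRRK2, was at -0.85 ± 0.20 (adjusted p = 0.00241) over both times and -1.15 ± 0.30 (adjusted p = 0.0134) at 24h, and Lrrk2 itself at -0.80 ± 0.29 (adjusted p = 0.0485). Rabep1, which binds Rab5 on early endosomes, was at -0.76 ± 0.24 (adjusted p = 0.0266) at 72h. Without Kaede-green 72h replicate 3, Lrrk2 over both times (-0.81, adjusted p = 0.0638) and Rabep1 at 72h (-0.75, adjusted p = 0.0617) were lost, and Evi5 at 72h was kept (-1.07, adjusted p = 0.0115).

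The 8 genes of carriers and prenylation, which keep Rab proteins soluble or give them their lipid anchor, held 1 call at 72h and none over both times. Rabggtb, the catalytic subunit of the enzyme that prenylates Rab proteins, stood below its Kaede-green 72h level in Kaede-red 72h cells (-1.14 ± 0.31, adjusted p = 0.00887). It was also lower at 72h than at 24h within Kaede-red cells (-1.10 ± 0.28, adjusted p = 0.0142). Both calls held without Kaede-green 72h replicate 3, at -1.07 (adjusted p = 0.0346) and -1.12 (adjusted p = 0.013). Within Kaede-red cells 3 of the 109 partners rose and 1 fell, against 4.92% and 3.76% of all genes. Those that rose were Mical1, an effector that acts on actin (1.27 ± 0.29, adjusted p = 0.0065), Tbc1d13, which acts on Rab35 (0.78 ± 0.24, adjusted p = 0.0341), and Dennd5a, an exchange factor (0.61 ± 0.20, adjusted p = 0.0475), the last of which was lost without that library (0.59, adjusted p = 0.0619). In Kaede-green cells no partner was called between the times, and none was called for the interaction of colour and time.

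**Figure D5:**
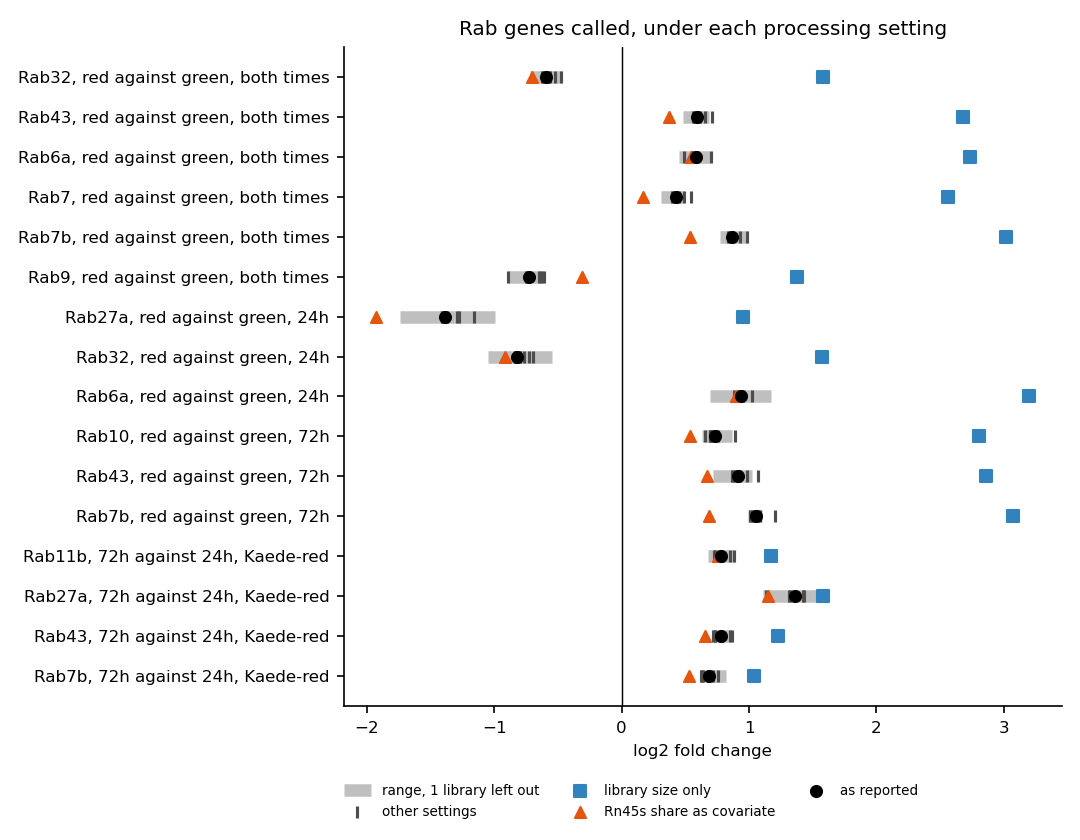
Log2 fold change of the 16 Rab gene differences called, as reported (black points), with 1 library left out (grey bars, lowest to highest), under the other settings (ticks), scaled by library size only (blue squares) and with the Rn45s share as a covariate (orange triangles). The squares of Rab32, Rab9 and Rab27a against Kaede-green cells lie on the other side of 0, and the triangles keep the direction of the black points.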

How the data were processed

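Total RNA libraries (5 ng of RNA, stranded pico-input kit, paired reads of 150 bases) were made from the 16 sorted samples. The deposited values are counts of reads per gene, which the authors made by trimming with Trim Galore, checking with FastQC, aligning to mm10 with HISAT2 and counting with featureCounts. Versions, strand setting and the handling of reads with several positions are not given in the sources used here. The combined table of all samples held the same values as the single files, which were read. Genes were kept with filterByExpr and tested with edgeR 4.0.16 in R 4.3.3 (TMM factors, 1 mean per group over all 16 libraries, quasi-likelihood test, Benjamini-Hochberg adjustment over 9642 genes), and SE is the log2 fold change divided by the root of F. DESeq2 1.42.0 and the other alternatives stand in the closing section.

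On simulated data for 9642 genes with 200 changed, the test recovered 66% of changes of 1 and 93% of changes of 2 on the log2 scale over both times, 28% and 73% at 24h, 35% and 85% at 72h, 20% and 69% between the times in Kaede-green cells, 30% and 91% in Kaede-red cells, and 7% and 57% for the interaction of colour and time. The 24 replicate pairs within groups differed by more than sampling noise (chi-square per gene 2.75 to 68.1). The study states that these libraries came from tumours of separate mice, but not whether the Kaede-green and Kaede-red libraries of 1 number shared a tumour. Replicate numbers were not treated as pairs. Positions and lengths came from GENCODE M21 (GRCm38), which matched all 59 genes, and promoter windows from RefSeq (GRCm38.p6). A window was taken where its start lay nearest to that of the gene in GENCODE. Genes with values in each library were those called in any comparison and 10 well known Rab genes, and partners were named as the 3 largest called rises and falls per comparison. The Rab genes, compartments and lists were chosen with earlier results of these data known. Intervals by counting were not computed, and read counts are not independent molecules.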

Additional observations from a re-analysis of the deposited data

Results flagged for a closer look

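Values were looked at in 80 sets (20 Rab genes in 4 groups of 4 libraries) for a library far from the rest of its group, meaning a gap to its neighbour, as a share of the group's range, above Dixon's critical value, and 8 were found. Chance alone flags about 5% of such sets. The 16 genes chosen by rule gave 3 of 64 sets, near that share, and the other 5 came from Rab3a, Rab3c, Rab6b and Rab40b, which were added because they were high in Kaede-green 72h replicate 3. In Kaede-green 72h replicate 3, Rab3a (6.32 CPM, against 0 to 0.78 in the other 3), Rab3c (3.41 CPM, against 0), Rab6b (9.24 CPM, against 0 to 0.61) and Rab40b (1.95 CPM, against 0 to 0.26) were high. Rab40b in Kaede-red 72h replicate 2 was found only because of 1 count (0.0252 CPM, against 0 in the others). Rab9 was low in Kaede-green 24h replicate 4 (6.13 CPM, against 14.5 to 15.2). Rab10 was high in Kaede-green 72h replicate 1 (13.5 CPM, against 9.46 to 9.97) and Rab32 in Kaede-red 24h replicate 1 (18.7 CPM, against 11.8 to 12.8).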

How the results depend on the processing

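Each alternative was recomputed over all genes. Of the 16 Rab gene differences called, all 16 kept their direction under DESeq2 (15 still called), RLE factors (13), no filter (14), thinned Kaede-red libraries (11) and the Rn45s covariate (0), as did the 10 that could be fitted with at least 10 counts in every library (10) and with only the groups compared (7). Scaling by library size only kept 12 and reversed Rab32 (1.58 over both times and at 24h), Rab9 (1.38) and Rab27a at 24h (0.95), besides the uncalled Rab5a (1.83), Rab11a (1.90) and Rab27a (1.55) over both times. Rab1, at 0.01, went to -0.017 under DESeq2, -0.023 with RLE factors, -0.019 with thinning, -0.25 with the Rn45s covariate, and -0.074 to 0.043 without 1 library. With the covariate Rab5c was at -0.048 and Rab11a at 0.11. The cause was not tested.

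Counts of Rab genes changed as follows. Higher in Kaede-red cells over both times, 4 became 34 with library size only, 7 with at least 10 counts, 0 with the covariate, and 2 to 6 without 1 library. Lower over both times, 2 became 0 with library size only and with the covariate, 1 with at least 10 counts, and 1 to 5 without 1 library. At 24h, 1 higher became 2 (DESeq2), 33 (library size only), 0 (only the groups compared, and the covariate) and 0 to 2 without 1 library. The 2 lower at 24h became 0 (library size only, only the groups compared, the covariate, thinned), 1 (no filter, and at least 10 counts) and 0 to 3 without 1 library. At 72h, 3 higher became 34 (library size only), 5 (no filter, and at least 10 counts), 0 (the covariate) and 1 to 4 without 1 library. No gene was lower at 72h, against 1 with DESeq2 and with no filter, and 0 to 1 without 1 library. In Kaede-red cells, 4 called with time became 0 (library size only, and the covariate), 2 (at least 10 counts) and 0 to 4 without 1 library. The change of the difference with time went from 0 to 0 to 1 without 1 library, and Kaede-green cells from 0 to 0. Among all genes, the share called over both times was 20.3% of 9642, and 43.8% of the 3084 with at least 10 counts. With library size only it was 96.7%, and with the covariate 1.62%. At 72h it was 16.8%, against 41.99% with at least 10 counts and 9.57% of 21040 genes with no filter. The rises from 4 to 7 and from 3 to 5 with at least 10 counts thus came with a higher share among all genes.

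Replicate numbers are shared between groups. Deviations of same-numbered Kaede-green and Kaede-red libraries were weakly correlated at 24h (0.05 to 0.15) and did not go together at 72h (-0.02 to 0.03). At 24h replicates 1 and 2 of both colours went together (0.07 to 0.15), as did replicates 3 and 4 (0.05 to 0.15). Correlations between these sets were -0.13 to -0.03. In Kaede-red 24h libraries the chi-square per gene was 2.75 and 4.20 within these sets and 23.4 to 52.2 between them. Rn45s, which the chi-square included, took 66.2 and 68.2% of counts in Kaede-red 24h replicates 1 and 2. In Kaede-red 24h replicates 3 and 4 it took 83.1 and 84.9%. The cause of the split between these sets was not tested. With a replicate block, and with a replicate block within time, the genes lower over both times went from 2 to 1, since Rab9 was lost (-0.65, adjusted p = 0.0507, and -0.63, adjusted p = 0.067), and the block within time added Rab7 at 72h (4 higher). No other Rab call changed. All genes called over both times went from 1959 to 1852 and 1784. The counts of Rab genes in Kaede-green libraries, at most 1726, limit what can be called.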
